A study of Mus musculus with 9 samples.

Results

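The genes described here are NOD-like receptor genes together with the kinase gene Ripk2, measured in a murine pancreatic tumor cell line in which the NOD-like receptor NLRX1 was altered. The 9 members, chosen by gene symbol, are Nlrx1, Nod1, Nod2, Nlrc3, Nlrc5, Nlrp3, Nlrp6, Nlrp10 and Ripk2, out of 19505 named genes on the array. Of these, 7 had a named probe set, 1 each, so no choice among probe sets was needed. Nlrc5 and Ripk2 had no probe set under their names in the annotation used here and were not analysed.

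Pan02 is a mouse pancreatic ductal adenocarcinoma line, and its RNA was measured on Clariom S arrays. The 4 lentivirally transduced lines were Pan02OE, which carried an open reading frame of murine NLRX1, Pan02OE-CTL, which carried a control open reading frame, Pan02KD, which carried a shRNA against Nlrx1, and Pan02KD-CTL, which carried a scrambled shRNA. All 4 lines were selected with puromycin, carried a GFP tag and were a single transduced population each. Each line was grown in normal medium or kept for 24 hours with a low dose of H2O2, with 1 array for each line and medium, which gives 8 arrays. The 2 arrays of a line are therefore 1 population in 2 media. The p-values measure only the spread left among these arrays after additive terms for line and medium, moderated over all genes. That spread may be technical or may hold responses to the medium that differ between lines. The series also lists a control RNA of the manufacturer, which was not analysed here.

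NOD-like receptors are cytosolic sensors built around a nucleotide-binding domain and leucine-rich repeats. NOD1 and NOD2 bind fragments of bacterial peptidoglycan and recruit the kinase RIPK2, which leads to NF-κB and MAPK signaling. NLRP3 and several relatives assemble inflammasomes, which activate caspase-1. NLRX1, which resides at mitochondria, and NLRC3 are known as members that restrain innate immune signaling, and NLRC5 is known as a transactivator of MHC class I genes. Many members are best known from myeloid cells or from intestinal epithelium, so low levels are common in other cell types.

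Besides Nlrx1, the members that differed from their control lines were Nod2 and Nlrc3, in the same direction as each other in each comparison. Their promoters, 250 bases before to 50 bases after the start of transcription from RefSeq on GRCm38.p6, are therefore shown, both written 5′ to 3′ on the strand of the gene, with any match to a searched motif in capitals.
Nod2, chr8:88647097-88647396, plus strand: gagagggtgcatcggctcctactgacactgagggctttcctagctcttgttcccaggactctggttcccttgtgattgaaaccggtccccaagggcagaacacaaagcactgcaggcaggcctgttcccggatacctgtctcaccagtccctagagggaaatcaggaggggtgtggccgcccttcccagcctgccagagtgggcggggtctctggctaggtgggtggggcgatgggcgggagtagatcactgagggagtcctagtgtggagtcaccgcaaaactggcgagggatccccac
Nlrc3, chr16:3976583-3976882, minus strand: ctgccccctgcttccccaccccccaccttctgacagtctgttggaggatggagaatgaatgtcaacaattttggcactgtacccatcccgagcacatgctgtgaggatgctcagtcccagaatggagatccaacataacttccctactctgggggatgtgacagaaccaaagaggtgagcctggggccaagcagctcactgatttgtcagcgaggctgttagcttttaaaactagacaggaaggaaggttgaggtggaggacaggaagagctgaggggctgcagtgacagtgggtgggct
Neither window holds a capital, because none of the 3 searched motifs was found on either strand of either promoter. The motifs were the GAS element TTCNNNGAA, bound by STAT factors and present in 8.3% of 32851 RefSeq promoters of this length, the AP-1 site TGANTCA, in 7.81%, and the κB site, GGGA and TTCC with any 2 bases between them, in 1.47%. The letters are simply not in these windows. The Nlrc3 window lies inside the annotated span of its gene, whose 5′ end is at 3979017 on chromosome 16. A start at that end was not searched. The Nod2 window was richer in G and C (61%) than that of Nlrc3 (54%) and than the median promoter (52.7%). Promoters of 6 of the 9 members were in the table. Among the others, 1 GAS match each was found in an Nlrx1 and a Nod1 promoter and 1 AP-1 match in the Nlrp6 promoter. Nlrx1 has 2 overlapping promoter windows in the table and both hold that same GAS match.

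The deposited values are log2 signals, and the array carries its own measure of what a probe reads without a target. This is a set of 23 antigenomic probe sets, which match no sequence of the mouse and differ in G and C content. Averaged over the 8 arrays they read from 3.45 to 7.48 with a median of 6.54. The brightest of them was taken as the limit above which a gene has a measured level. It has the highest G and C count, 25, and was applied to every gene whatever the G and C content of its probes. Background probe sets with 8 to 18 such bases read 3.45 to 5.74. By this limit 3 of the 7 measured members reached a measured level in at least 1 line, namely Nlrx1, Nod2 and Nlrc3, against 45% of all named genes. The other 4, Nod1, Nlrp3, Nlrp6 and Nlrp10, stayed under it on all 8 arrays, as 53.8% of all genes did. Over members and lines, 5 of the 28 line means were above it. They are Nlrx1 in Pan02OE, and Nod2 and Nlrc3 in Pan02OE-CTL and Pan02KD.

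**Figure D1:**
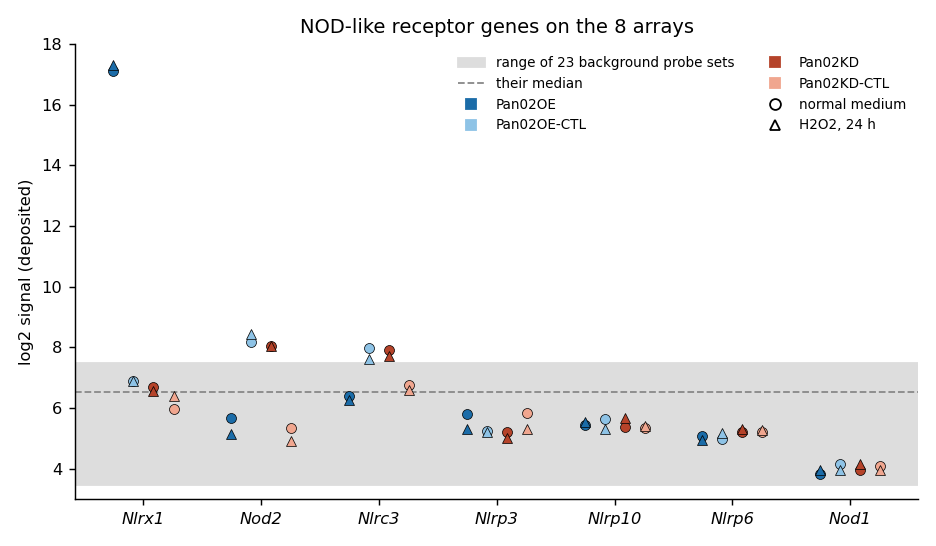
Deposited log2 signal (y axis) of the 7 measured members (x axis) on each of the 8 arrays, colored by line, with circles for normal medium and triangles for H2O2. The gray band is the range of the 23 antigenomic background probe sets (3.45 to 7.48) and the dashed line their median (6.54). Apart from Nlrx1 in Pan02OE, points above the band belong to Nod2 and Nlrc3 in Pan02OE-CTL and Pan02KD.

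The arrays were alike in their medians (6.51 to 6.58 over genes) and carried ductal epithelial genes. Of 7 pancreatic ductal markers, 6 were above the brightest background probe set in every line (Krt8, Krt18, Krt19, Krt7, Cdh1 and Sox9), while Epcam was not. None of 7 measured leukocyte, 5 acinar or 4 endothelial markers was above it in any line. Of 5 measured fibroblast markers, Pdgfrb was above it in Pan02KD and Pan02KD-CTL and Dcn in Pan02KD alone. In a bulk measurement fewer cells of a kind and less RNA per cell cannot be told apart.

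Nlrx1 (NCBI gene 270151, chromosome 9), the gene altered in these lines, was examined first. In Pan02OE it read 17.10 in normal medium and 17.31 in H2O2, against 6.89 and 6.90 in Pan02OE-CTL. For the knockdown system the values were 6.68 and 6.56 in the arrays labelled Pan02KD and 5.96 and 6.40 in Pan02KD-CTL. Only the 2 Pan02OE arrays stood above background, and the other 6 arrays exceeded 11 to 18 of the 23 background probe sets, where a partial loss of the transcript may not be detectable.

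Nlrx1 rose in Pan02OE over Pan02OE-CTL by 10.31 on the log2 scale (SE 0.17, adjusted p = 7.5e-09 by limma, 2 arrays per line), which was the largest fitted difference of all 19505 genes in that comparison. Because Pan02OE-CTL lay in the background range, this is reported as at least 849-fold higher, with the level of the brightest background probe set in place of the dimmer line. Bounds given below were made in the same way, for called differences with 1 of the 2 lines in that range. The fitted log2 differences beside them are not sizes of change in such cases.

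In the arrays labelled Pan02KD, Nlrx1 was not lower than in Pan02KD-CTL. The difference was 0.44 in the other direction (SE 0.17, 95% interval 0.05 to 0.84, adjusted p = 0.146 by limma), with 0.72 in normal medium and 0.16 in H2O2, and both lines in the background range. At such signals the arrays cannot show whether the transcript was partly lost, so Nlrx1 gives no check of this label. The study checked NLRX1 protein by western blot and used the only shRNA sequence that it reports as effective. The RNA signals here do not bear on that protein result. Differences against Pan02KD-CTL are given below for the arrays labelled Pan02KD. Where Nlrx1 is said below to be not lower in these arrays, this refers only to signals in the background range. Such signals show neither a loss of the transcript nor the absence of a loss. Among the lines without the construct, Nlrx1 read lower in Pan02KD-CTL than in Pan02OE-CTL (-0.71, SE 0.17, adjusted p = 0.022 by limma), again within the background range. That call was lost when the normal-medium array of Pan02OE-CTL (-0.63, adjusted p = 0.156), its H2O2 array (-0.79, adjusted p = 0.085) or the normal-medium array of Pan02KD-CTL (-0.51, adjusted p = 0.130) was left out. In order of level, Pan02OE was followed by Pan02OE-CTL, Pan02KD and Pan02KD-CTL (means of 17.21, 6.89, 6.62 and 6.18), and of these neighbors only the pair of Pan02OE and Pan02OE-CTL passed the adjusted test.

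**Figure D2:**
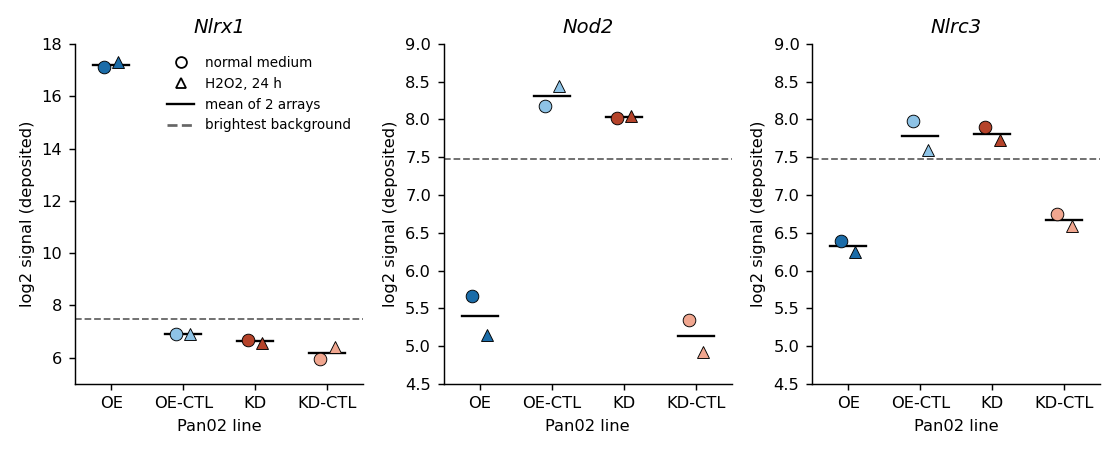
Deposited log2 signal (y axis, a wider scale for Nlrx1) of Nlrx1, Nod2 and Nlrc3 in the 4 Pan02 lines (x axis), with circles for normal medium, triangles for H2O2 and bars for the mean of the 2 arrays. The dashed line is the brightest background probe set (7.48). Nod2 and Nlrc3 lay above it in Pan02OE-CTL and Pan02KD and below it in Pan02OE and Pan02KD-CTL.

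Nod2 (NCBI gene 257632, chromosome 8) encodes the sensor of muramyl dipeptide. It read 5.66 in normal medium and 5.14 in H2O2 in Pan02OE, and 8.18 and 8.44 in Pan02OE-CTL. The arrays labelled Pan02KD read 8.03 and 8.05, and those of Pan02KD-CTL 5.35 and 4.92. The 4 arrays of Pan02OE-CTL and Pan02KD were thus all brighter than every background probe set, and the 4 arrays of Pan02OE and Pan02KD-CTL exceeded 9 or 10 of the 23. These pairs of lines are grouped by the Nod2 readings themselves.

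Nod2 fell in Pan02OE relative to Pan02OE-CTL (log2 difference -2.91, SE 0.21, adjusted p = 2.5e-05 by limma, 2 arrays per line), at least 1.78-fold lower, and was lower in normal medium (-2.52) and in H2O2 (-3.30). In the arrays labelled Pan02KD, Nod2 rose over Pan02KD-CTL (2.90, SE 0.21, adjusted p = 3.9e-05 by limma), at least 1.47-fold higher, with 2.68 in normal medium and 3.13 in H2O2. Nlrx1 itself was not lower in these arrays, at signals that cannot show a partial loss. The bounds are far smaller than the fitted differences because even the brighter lines stood only 0.56 to 0.83 above the brightest background probe set on the log2 scale. In the brighter lines Nod2 exceeded 86.7% to 89.8% of the array's 5222 negative control probe sets.

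The control lines of the overexpression and knockdown systems did not read alike. Nod2 was lower in Pan02KD-CTL than in Pan02OE-CTL (-3.18, SE 0.21, adjusted p = 1.1e-05 by limma), at least 1.78-fold. In order of level the lines ran Pan02OE-CTL, Pan02KD, Pan02OE and Pan02KD-CTL, with means of 8.31, 8.04, 5.40 and 5.13. The brighter pair of lines did not differ beyond its spread (Pan02KD minus Pan02OE-CTL -0.27, 95% interval -0.74 to 0.20), nor did the dimmer pair (Pan02OE minus Pan02KD-CTL 0.27, 95% interval -0.20 to 0.73), whereas Pan02OE was lower than Pan02KD (-2.64, adjusted p = 4.3e-05 by limma), at least 1.47-fold. The control lines differ in the technology of their construct as well as in the population transduced, and these cannot be told apart.

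Nlrc3 (NCBI gene 268857, chromosome 16) encodes a NOD-like receptor known for restraining T cell activation and TLR and STING signaling. It read 6.39 in normal medium and 6.25 in H2O2 in Pan02OE, and 7.97 and 7.60 in Pan02OE-CTL. Pan02KD-CTL read 6.75 and 6.59, and the arrays labelled Pan02KD 7.90 and 7.73. The same lines were bright as for Nod2, although the H2O2 array of Pan02OE-CTL stood only slightly above the brightest background probe set. In these brighter lines Nlrc3 exceeded 80.8% to 87.2% of the negative control probe sets.

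Nlrc3 fell in Pan02OE relative to Pan02OE-CTL (log2 difference -1.46, SE 0.15, adjusted p = 0.00021 by limma), at least 1.24-fold lower. It rose in the arrays labelled Pan02KD, in which Nlrx1 was not lower, over Pan02KD-CTL (1.14, SE 0.15, adjusted p = 0.0013 by limma), at least 1.26-fold higher, with 1.15 in normal medium and 1.14 in H2O2. As for Nod2, the control lines differed from each other (Pan02KD-CTL minus Pan02OE-CTL -1.12, SE 0.15, adjusted p = 0.00090 by limma, at least 1.24-fold lower). Pan02KD and Pan02OE-CTL did not differ beyond their spread (0.03, 95% interval -0.31 to 0.37). Pan02OE read below Pan02KD-CTL without passing the test (-0.35, 95% interval -0.69 to -0.01, adjusted p = 0.243 by limma).

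Over the 8 arrays the signals of Nod2 and Nlrc3 correlated with a Pearson r of 0.95, given as a description, since the 8 arrays come from 4 lines and both genes were read in the same RNA. Being lower in Pan02OE and higher in the arrays labelled Pan02KD, with both tests passed, is itself not rare here, since 4.28% of all genes (835 of 19505) share it.

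Of the NOD1 and NOD2 branch, Nod1 (chromosome 6), the sensor of peptidoglycan fragments with diaminopimelic acid, had no measured level. It read between 3.84 and 4.17 over all 8 arrays, above 5 to 7 of the 23 background probe sets. Its differences were -0.17 in Pan02OE (95% interval -0.54 to 0.20) and 0.03 in the arrays labelled Pan02KD (95% interval -0.34 to 0.40). At this signal a difference in Nod1 was not detectable.

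Among the inflammasome sensors, Nlrp3 (chromosome 11) read 5.79 in normal medium and 5.31 in H2O2 in Pan02OE, 5.23 and 5.20 in Pan02OE-CTL, 5.20 and 5.01 in the arrays labelled Pan02KD, and 5.83 and 5.32 in Pan02KD-CTL. All 8 values lay within the background range. The difference from the control line was 0.33 in Pan02OE (SE 0.17, adjusted p = 0.255 by limma) and -0.47 in the arrays labelled Pan02KD (SE 0.17, adjusted p = 0.115), so neither comparison passed. The difference between these comparisons did (0.80, SE 0.24, adjusted p = 0.042 by limma), but narrowly, and it was called in 6 of 15 alternative analyses, with values of 0.62 to 0.99 and adjusted p of 0.035 to 0.181.

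Nlrp6 and Nlrp10 (both chromosome 7) varied little. Nlrp6, best known from intestinal epithelium, read between 4.94 and 5.31, and Nlrp10, which lacks the leucine-rich repeats, between 5.29 and 5.65. Their differences from the control lines lay between -0.06 and 0.14, with no adjusted p under 0.70.

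**Figure D3:**
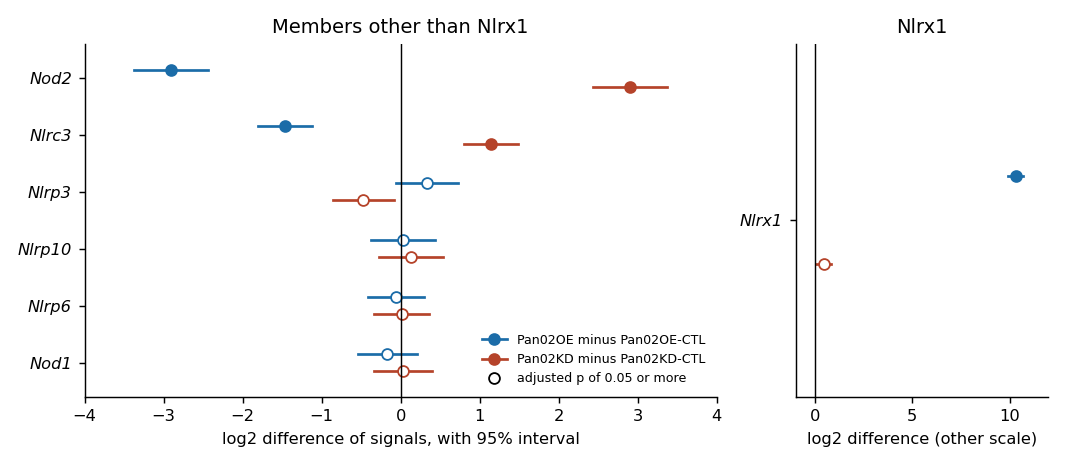
Log2 difference of signals (x axis) with its 95% interval from limma for the 7 measured members (y axis), in blue for Pan02OE minus Pan02OE-CTL and in red for Pan02KD minus Pan02KD-CTL, with Nlrx1 in a panel of its own scale. Filled points passed at an adjusted p under 0.05 over all genes. Nod2 (-2.91 and 2.90) and Nlrc3 (-1.46 and 1.14) had opposite signs in the comparisons.

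In Pan02OE, then, 3 of the 7 measured members passed the test, Nlrx1 higher and Nod2 and Nlrc3 lower, against 16.5% of all genes (7.02% higher and 9.49% lower). In the arrays labelled Pan02KD, 2 of 7 passed, both higher, against 13.6% (7.59% higher). The differences between the comparisons passed for 4 of 7, against 22.3%, and those between the control lines for 3 of 7, all lower in Pan02KD-CTL, against 16.9% (9.28% lower). Over the remaining pairs of lines, 3 of 7 passed between Pan02OE and Pan02KD (18.3% of all genes), 1 of 7, Nlrx1, between Pan02OE and Pan02KD-CTL (6.37%), and 0 of 7 between Pan02KD and Pan02OE-CTL (7.63%), where no member had an unadjusted p under 0.05 either. Nlrx1 is the gene placed in Pan02OE, so its calls in comparisons that involve Pan02OE were set in advance by the construct. The study lists Nod2, from these same arrays, with the genes most reduced in Pan02OE, so that call is not independent evidence. With so few members, of which several had no measured level, these counts describe the list and no more. The counts of 3 and 2 against the control lines were unchanged when any single array was left out.

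For the H2O2 challenge, averaged over the 4 lines, no member passed the test. The differences between H2O2 and normal medium were 0.14 for Nlrx1, -0.16 for Nod2 and -0.21 for Nlrc3, with adjusted p of 0.79 to 0.87 by limma. Nlrc3 read lower in H2O2 in all 4 lines (-0.14 in Pan02OE, -0.37 in Pan02OE-CTL, -0.17 in the arrays labelled Pan02KD and -0.16 in Pan02KD-CTL), and so did Nlrp3 (-0.48, -0.02, -0.19 and -0.51 in the same order), with a mean of -0.30 (95% interval -0.58 to -0.02, adjusted p = 0.755). No gene on the array passed for H2O2 (0% of 19505, smallest adjusted p = 0.263), although 1231 genes and 1 member, Nlrp3, had an unadjusted p under 0.05 in limma. Nod2 moved in both directions among the lines (-0.52 in Pan02OE, 0.27 in Pan02OE-CTL, 0.02 in the arrays labelled Pan02KD and -0.42 in Pan02KD-CTL).

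Genes with a pattern most like that of a member were taken over the 8 arrays from 2387 genes with a measured level and line means at least 1 apart. For Nlrx1 these were Wwp1, a ubiquitin ligase (Pearson r 0.97), Nrbf2, a subunit of the autophagy lipid kinase complex (0.97), and Rap2b, a small GTPase (0.96), all higher in Pan02OE, by 1.06 to 1.19. For Nod2 they were Fam3c, a secreted factor, Lrrcc1, a centrosomal protein, and H3c11, a histone gene from a family of near-identical copies that a probe set may not separate (0.99 each). For Nlrc3 they were Sorbs3, an adaptor of focal adhesions, Psme1, a proteasome activator subunit, and Ttll1, a tubulin glutamylase (0.99 each). Such likeness is common with 4 lines, as 169 of the 2387 genes exceeded an r of 0.95 with Nod2 and 136 with Nlrc3, against 8 with Nlrx1. For Nlrx1 the r mostly reflects how far Pan02OE stands from the other lines, whose Nlrx1 signals lay in the background range. The smaller count therefore does not mark these genes as particular to Nlrx1.

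The genes next to the 3 members on their chromosomes were read as well. The 4 neighbors of Nlrx1 (Ccdc153, Pdzd3, Abcg4 and Hinfp) did not pass in either comparison. Next to Nod2 lies Cyld, which encodes a deubiquitinase that removes ubiquitin chains from RIPK2 and other NOD2 signaling proteins. Cyld rose in the arrays labelled Pan02KD (0.86, SE 0.18, adjusted p = 0.012 by limma), in which Nlrx1 was not lower, and read -0.52 in Pan02OE (adjusted p = 0.077). The Cyld call was lost without the H2O2 array of Pan02KD (0.72, adjusted p = 0.138) or the normal-medium array of Pan02KD-CTL (0.71, adjusted p = 0.072). The immediate neighbors of Nlrc3 had the signs of Nlrc3 in both comparisons, each passing in 1 of them. Slx4, a scaffold of DNA repair nucleases, read -0.68 in Pan02OE (SE 0.19, adjusted p = 0.040), at least 1.05-fold lower, and 0.60 in the arrays labelled Pan02KD (adjusted p = 0.076). Cluap1, a ciliary gene with all lines in the background range, read -0.46 in Pan02OE (adjusted p = 0.084) and 0.90 in the arrays labelled Pan02KD (SE 0.16, adjusted p = 0.0051). The remaining neighbors of Nod2 (Nkd1, Snx20 and Sall1) and of Nlrc3 (1700037C18Rik and Dnase1) did not pass in either comparison.

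The wider pathway was followed in gene lists written from general knowledge. The other NLR family genes mostly had no measured level, with 1 of 19 measured genes above the brightest background probe set, against 45% of all genes. None passed in Pan02OE, against 16.5% of all genes called (median difference 0.15, against 0.04 over all genes). That count was not the same in every alternative analysis. Naip2, a sensor of the NLRC4 inflammasome for bacterial secretion proteins, was the only member of this list to pass in the arrays labelled Pan02KD, against 13.6% of all genes called. It read at least 1.14-fold lower than in Pan02KD-CTL (-0.87, SE 0.21, adjusted p = 0.026 by limma), a call lost without the normal-medium array of Pan02KD (-0.69) or of Pan02KD-CTL (-0.49) or the H2O2 array of Pan02KD (-1.05).

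Signaling partners of NOD1 and NOD2, by contrast, were mostly measured (22 of 24 above background, against 45% of all genes). In Pan02OE 4 of 24 fell and none rose, against 16.5% of all genes called, 9.49% lower. They were Trim27, a ubiquitin ligase that marks NOD2 for degradation (-0.91), Rnf31, the catalytic subunit of the linear ubiquitin assembly complex (-0.82), Casp8 (-0.79) and Tnfaip3, the A20 editor of ubiquitin chains on RIPK2 (-0.64). The count fell to 2 without the normal-medium array of Pan02OE, to 1 without its H2O2 array and to 0 without the H2O2 array of Pan02OE-CTL, with all 4 values still below 0. The arrays labelled Pan02KD, in which Nlrx1 was not lower, had 7 of 24 higher and 2 lower, against 13.6% of all genes called. Between the control lines 5 of 24 were lower in Pan02KD-CTL and none higher, against 16.9%. In the arrays labelled Pan02KD the largest differences from Pan02KD-CTL were those of Rnf31 (0.98, SE 0.16), Tnfaip3 (0.96, SE 0.14), Trim27 (0.96, SE 0.16) and Cyld (0.86, SE 0.18). All 4 were higher. These 9 calls became 5 without the normal-medium array of Pan02KD and 2 without its H2O2 array. The list medians were -0.17 in Pan02OE and 0.19 in the arrays labelled Pan02KD, against 0.04 and 0.00 over all genes.

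Of the 6 transporters that carry muropeptides into the cytosol, 1 had a measured level, against 45% of all genes. This was Slc15a4, the endolysosomal oligopeptide transporter, which rose in Pan02OE (0.96, SE 0.15, adjusted p = 0.0026 by limma). It fell relative to Pan02KD-CTL in the arrays labelled Pan02KD (-0.89, SE 0.15, adjusted p = 0.0051), in which Nlrx1 was not lower. Its direction was thus opposite to that of Nod2 in both comparisons. The second call was lost without the normal-medium array of Pan02KD (-0.86, adjusted p = 0.059).

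**Figure D4:**
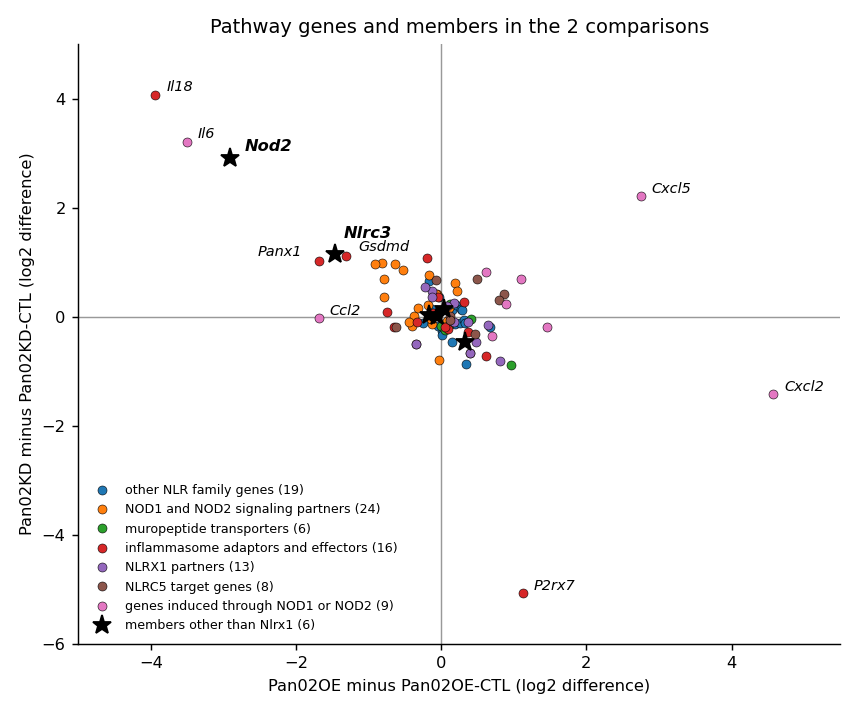
Log2 difference of Pan02OE minus Pan02OE-CTL (x axis) against that of Pan02KD minus Pan02KD-CTL (y axis) for the measured genes of 7 pathway lists (colored points, number of genes in brackets) and for the 6 measured members other than Nlrx1 (stars). Nod2 (-2.91 and 2.90) lies near Il6 (-3.51 and 3.21) and Il18 (-3.94 and 4.06) at the upper left, while Cxcl5 (2.75 and 2.20), Cxcl2 (4.57 and -1.42) and P2rx7 (1.13 and -5.07) lie elsewhere.

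Genes that NOD1 or NOD2 signaling can induce did not move in a single direction. Of 9 measured, Pan02OE had 6 higher and 2 lower, and Pan02KD, in whose arrays Nlrx1 was not lower, had 3 higher and 1 lower, against 16.5% and 13.6% of all genes called. The control lines differed from each other in as many, with 7 higher and 1 lower in Pan02KD-CTL than in Pan02OE-CTL (16.9% of all genes called). Cxcl2 (5.91, SE 0.20), Il6 (-4.88, SE 0.21, at least 11.7-fold lower) and Cxcl5 (3.69, SE 0.24, at least 11-fold higher) had the largest differences between the controls. The study names several of them from these arrays, so their counts are not independent evidence. Il6 moved as Nod2 did, lower in Pan02OE (-3.51, SE 0.21, adjusted p = 8.7e-06 by limma) and higher in the arrays labelled Pan02KD (3.21, SE 0.21, adjusted p = 2.1e-05, at least 3.68-fold). Ccl2, a monocyte chemoattractant, fell in Pan02OE (-1.69, SE 0.18, at least 2.08-fold lower) and read -0.03 in the arrays labelled Pan02KD. The neutrophil chemokine genes went otherwise. Cxcl2 rose in Pan02OE (4.57, SE 0.20) and was lower in the arrays labelled Pan02KD (-1.42, SE 0.20), and Cxcl5 rose in both (2.75, SE 0.24, at least 5.71-fold, and 2.20, SE 0.24). Nfkbia, which encodes an inhibitor of NF-κB that NF-κB itself induces, rose in the arrays labelled Pan02KD (0.81, SE 0.19, adjusted p = 0.022 by limma), a call lost without either array of Pan02KD (0.81 in both cases) or the H2O2 array of Pan02KD-CTL (0.55). Among the 6 genes higher in Pan02OE, Tnf and Icam1, named after their values were seen, had both lines in the background range, so that no size can be given for them.

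Most inflammasome adaptors and effectors did not pass. In Pan02OE 3 of 16 fell and none rose (16.5% of all genes called), and in the arrays labelled Pan02KD, in which Nlrx1 was not lower, 4 rose and 2 fell (13.6%), with list medians of -0.12 and 0.06. Between the control lines 2 were higher and 4 lower in Pan02KD-CTL (16.9%). The lower ones included Il18 (-4.28, SE 0.21, at least 3.99-fold), Panx1 (-1.87, SE 0.16, at least 2.21-fold) and Gsdmd (-0.94, SE 0.19). Il18, the caspase-1 substrate cytokine gene, fell in Pan02OE (-3.94, SE 0.21, adjusted p = 5.0e-06 by limma, at least 3.99-fold) and was higher in the arrays labelled Pan02KD (4.06, SE 0.21, adjusted p = 6.2e-06, at least 3.44-fold). The study names Il18 from these same arrays, so its calls are not independent evidence. Panx1, a membrane channel gene, fell in Pan02OE (-1.68, SE 0.16, at least 2.21-fold), as did Gsdmd, which encodes the pore-forming gasdermin D (-1.32, SE 0.19). P2rx7, the ATP-gated channel gene upstream of NLRP3, was bright in Pan02KD-CTL only, at 9.13 in normal medium and 11.85 in H2O2, while the other 6 arrays read 5.40 to 7.37, in the background range. It was lower in the arrays labelled Pan02KD (-5.07, SE 0.63, adjusted p = 0.00098 by limma, at least 8.09-fold), and higher in Pan02KD-CTL than in Pan02OE-CTL (4.65, SE 0.63). The difference was -6.54 without the normal-medium array of Pan02KD-CTL and -3.61 without its H2O2 array, and passed both times. Gsdmd (1.11, SE 0.19) and Casp4 (1.07, SE 0.15), the caspase gene of the noncanonical inflammasome, rose in the arrays labelled Pan02KD. The Gsdmd call was lost without the H2O2 array of Pan02KD (0.91, adjusted p = 0.070). The count in Pan02OE was 5 when either Pan02KD-CTL array was left out.

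Partners of NLRX1 were measured for 13 genes, of which 12 were above background, against 45% of all genes. In Pan02OE 2 of 13 rose and none fell (16.5% of all genes called), Sting1, the adaptor of cytosolic DNA sensing (0.80, SE 0.15, adjusted p = 0.0049 by limma), and Atg12, an autophagy conjugation gene (0.65, SE 0.15, adjusted p = 0.017). The Atg12 call was lost when any 1 of the 4 arrays of these lines was left out (0.56 to 0.74), while that of Sting1 was not. In the arrays labelled Pan02KD, in which Nlrx1 was not lower, Sting1 (-0.81, SE 0.15) and Atg16l1 (-0.68, SE 0.17), another autophagy gene, fell, against 13.6% of all genes called. No call was left in this list without either array of Pan02KD, and 1 without the normal-medium array of Pan02KD-CTL.

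For NLRC5, which was not analysed, its MHC class I target genes were read instead. Of 8 measured, 2 rose in Pan02OE, H2-K1 (0.86, SE 0.18, adjusted p = 0.0091 by limma) and H2-D1 (0.79, SE 0.18, adjusted p = 0.015), and none fell, against 16.5% of all genes called. Between the control lines 4 of 8 were higher in Pan02KD-CTL and none lower (16.9%), with H2-K1 at 1.76 (SE 0.18) and H2-D1 at 1.19 (SE 0.18). In the arrays labelled Pan02KD, in which Nlrx1 was not lower, H2-T23 (0.68, SE 0.15) rose, and H2-Q4 passed with both lines in the background range, against 13.6% of all genes called. These calls depended on single arrays. Those in Pan02OE fell to 0 without its normal-medium array and to 1 without any other array of the overexpression system. Those in Pan02KD fell to 0 without its normal-medium array or the H2O2 array of Pan02KD-CTL, and to 1 without either remaining array of the knockdown system. Class I genes are a family of close copies whose probes may share signal.

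Markers of other cell types moved with the line in a few cases, beside the differences above. Dcn, a fibroblast marker, rose in the arrays labelled Pan02KD (5.53, SE 0.22, at least 7.94-fold), while the other fibroblast marker with a measured level, Pdgfrb, fell there (-1.35, SE 0.18). The log2 of the summed level of the 5 fibroblast markers was 10.79 to 11.06 in Pan02KD, 9.80 to 10.18 in Pan02KD-CTL, 8.66 to 8.74 in Pan02OE-CTL and 8.28 to 8.50 in Pan02OE. In each comparison with a control line, the line brighter for Nod2 and Nlrc3 thus had the higher fibroblast sum. Between the control lines the order was the other way, with the higher sum in Pan02KD-CTL, where Nod2 and Nlrc3 were lower. In Pan02OE and Pan02OE-CTL none of the 5 markers was above the brightest background probe set, so their sums are background readings. Of the ductal markers, 6 of 7 rose in Pan02OE, against 16.5% of all genes called, 7.02% higher. In the arrays labelled Pan02KD 1 was higher and 3 were lower, against 13.6% of all genes called. The summed ductal level was 17.93 to 17.96 in Pan02OE, 16.82 to 16.97 in Pan02OE-CTL, 16.20 to 16.34 in Pan02KD and 17.01 to 17.41 in Pan02KD-CTL, so the lines with low Nod2 had the higher ductal signal. The part of the fibroblast and ductal signals in the Nod2 and Nlrc3 differences was not tested. For leukocytes, in which several members are best known, the 7 measured markers read below the brightest background probe set in every line.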

How the data were processed

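The deposited table holds log2 signals that the authors made from Clariom S mouse arrays with the Transcriptome Analysis Console. Its version, the summarization and the normalization are not given in the sources used here. No further normalization was applied. Arrays were assigned to lines and media from the sample titles. Of 22206 gene probe sets, 19572 had 1 symbol, and where a gene had several the brightest was kept, leaving 19505 genes. The column of the manufacturer's control RNA (1 column) holds no values and was not used. Depth does not apply to arrays, whose number (8) limits the precision.

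Lines were compared with limma 3.58.1 in R 4.3.3 (line and medium as additive terms, all 8 arrays, 3 residual and 6.17 prior degrees of freedom, eBayes), with Benjamini-Hochberg adjustment over all genes and a call at an adjusted p under 0.05. An interval is at 95% confidence. The fit was tested on simulated data. Where 1 of 2 lines lay at or below the brightest of 23 antigenomic probe sets, a bound on the fold replaced the dimmer line's signal by that probe set's, array by array. Within a single medium there is no test. The members and lists were chosen with earlier results of these data known. Named are all members, of each list the called genes (at most the 4 with the largest difference in a comparison, markers apart, with exceptions marked), the 3 genes most correlated with each member that had a measured level, and their neighbors in the RefSeq order of GRCm38.p6. Sequences are from RefSeq. Alternatives covered scaling, filters, probe sets, the variance model, the medium term, the arrays fitted and each array left out.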

Additional observations from a re-analysis of the deposited data

Results flagged for a closer look

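The differences of 4 members from their control lines were themselves different in the overexpression and the knockdown systems, by a test of that difference in limma over all 8 arrays (Pan02OE minus Pan02OE-CTL, less the same for the arrays labelled Pan02KD, in which Nlrx1 was not lower). For Nlrx1 the difference of the log2 differences was 9.87 (SE 0.25, adjusted p = 2.3e-08). For Nod2 it was -5.81 (SE 0.29, adjusted p = 2.0e-06) and for Nlrc3 -2.61 (SE 0.21, adjusted p = 3.3e-05), which passed in all 17 alternatives. Each of these is a sum of differences against a line in the background range, so that the sign can be read and the size cannot. For Nlrp3 it was 0.80 (SE 0.24, adjusted p = 0.042), with all arrays of Nlrp3 in the background range. A line has 2 arrays, so no group was large enough to be searched for outlying arrays.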

How the results depend on the processing

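Members passing numbered 3 in Pan02OE, 2 in the arrays labelled Pan02KD and 0 for H2O2 under every alternative that was run, 3 to 4 for the difference between these comparisons, 2 to 3 between the control lines, and 4 member calls over the remaining pairs of lines. Over 18 alternatives Nod2 ranged from -3.20 to -2.62 in Pan02OE and from 2.73 to 3.08 in Pan02KD, and Nlrc3 from -1.57 to -1.36 and from 1.09 to 1.18, all past the threshold. Nlrp3 lost its call for the difference between the comparisons in 9 of 15 alternatives, among them cyclic loess (0.75, adjusted p = 0.060). The limit for a measured level mattered more. Above the median of the background probe sets 8 line means of members were measured rather than 5. Above the 95th percentile of the negative control probe sets, a limit chosen after seeing the data, 1 member and 1 line mean remained, Nlrx1 in Pan02OE, so Nod2 and Nlrc3 stand within the upper range of the negative controls. No paired analysis was possible because the labels carry no replicate numbers to pair by. Arrays of a medium were linked only by the medium term of the fit. How close a signal lies to background limits the size that can be given for Nod2 and Nlrc3.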
